A study of Mus musculus with 13 samples.

Results

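This account covers 34 genes named for respiratory complexes III, IV and V or cytochrome c, 31 of them subunits or cytochrome c itself, measured in RNA bound to adipocyte ribosomes of mice on chow or on high-fat food (HFD). The genes were chosen by symbol: every row of the deposited table that begins with Uqcr, Atp5, Cox4, Cox5, Cox6, Cox7 or Cox8, or that is Cyc1 or Cycs, 34 of 11761 rows. By complex they are 8 genes of complex III (Cyc1 among them), the cytochrome c gene Cycs, 10 of complex IV, 12 of complex V, and 3 that share a name stem without being subunits in the textbook sense (Cox7a2l, Atp5s and Atp5sl). All 34 passed the filter on low values, an average of 1 CPM (reads counted relative to library size) or more. Symbols are those of the table, and the mitochondrially encoded subunits were not analysed here.

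The animals are Adipoq-NuTRAP mice on the C57BL/6J background. NuTRAP is an allele that, in cells with Cre, tags ribosomes with GFP and nuclei with mCherry, and Adipoq is the adiponectin gene, whose promoter is active in fat cells. Both diet groups carry it. Chow mice received a diet with 6.4% fat by weight and HFD mice a high-fat diet, each for 10 weeks. RNA was pulled down with an antibody against GFP from homogenised epididymal white fat, with 3 libraries per diet. The labels give neither age nor sex, and do not say whether replicates were separate or pooled animals. The p-values below therefore measure library-to-library spread alone, which may be technical.

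In oxidative phosphorylation, complex III takes electrons from ubiquinol and passes them to the mobile carrier cytochrome c, and complex IV hands them from cytochrome c to oxygen. Both pump protons out of the mitochondrial matrix, and complex V, the ATP synthase, lets protons back in to make ATP. Each complex joins many nuclear-encoded subunits to a few made inside mitochondria. White fat holds fewer mitochondria than brown fat, and uses their ATP and carbon intermediates for lipid synthesis and turnover.

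Most of these genes were lower in HFD than in chow. With limma, 15 of the 34 fell and 0 rose (44.1% fell). Over all 11643 genes tested, 16.0% were called lower and 19.1% higher. At an unadjusted p under 0.05, 21 of the 34 passed, all with lower levels in HFD. Of all 11643 genes tested, 5304 passed that threshold, in either direction. The 15 that fell stood in HFD at 0.571 to 0.731 times their chow level, log2 fold changes of -0.81 to -0.45 on the log2(CPM + 1) scale. Called here means a Benjamini-Hochberg adjusted p under 0.05 over all genes tested. The fold change was below 0 for 31 of the 34 genes. Their median was -0.54, against -0.004 for all genes tested, and only scaling on adipocyte markers brought it above 0 (0.03). For 23 of the 34 every HFD library lay below every chow library, and for 0 every HFD library lay above. Over all genes tested these shares were 25.0% and 25.2%. With HFD replicate 1, 2 or 3 left out, 9, 9 and 5 of the 34 fell, where 1462, 1248 and 1162 of all 11643 genes did. Cyc1, Uqcrc2, Uqcrfs1, Atp5b and Atp5c1 (5 genes) were called in every fit with 1 library left out. The share of all genes that meets this is not given here, so the 5 cannot be set against a background. Under adipocyte marker scaling none of these 5 was called (limma adjusted p 0.465 to 0.977). In ribosome-bound RNA pulled down from homogenised fat, fewer cells of a type, less RNA per cell and less RNA on ribosomes cannot be told apart.

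Chow replicate 3 stood apart. Its effective library size, read from the steps between low values, was 7430000 reads, against 23200000 to 39400000 in the other 5 libraries. Of the 34 genes, 26 had their highest level in it, and the median gene stood 0.45 (log2) above the mean of chow replicates 1 and 2. For all genes tested that median was -0.01, for 195 genes spanning at most 2000 bases of genome it was 0.34, and for 1549 genes spanning over 100000 bases it was -0.18. The 34 genes span 1154 to 24481 bases, with a median of 6204, against 25564 for tested genes with a known span. Without this library 14 of the 34 fell and 0 rose (background 14.9% lower and 17.5% higher), with a median of -0.33, and 13 of these 14 were among the 15. Then 24 of the 34 had every HFD library below both chow libraries and 0 had every one above (background 29.6% and 29.7%). Over tested genes the median log2 fold change also rose with span. It was -0.26 at up to 2000 bases, -0.06 from 5000 to 25000 and 0.155 over 100000. Without chow replicate 3 these medians were -0.15, -0.04 and 0.095. The part of gene span or transcript length in these results was not tested.

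**Figure D1:**
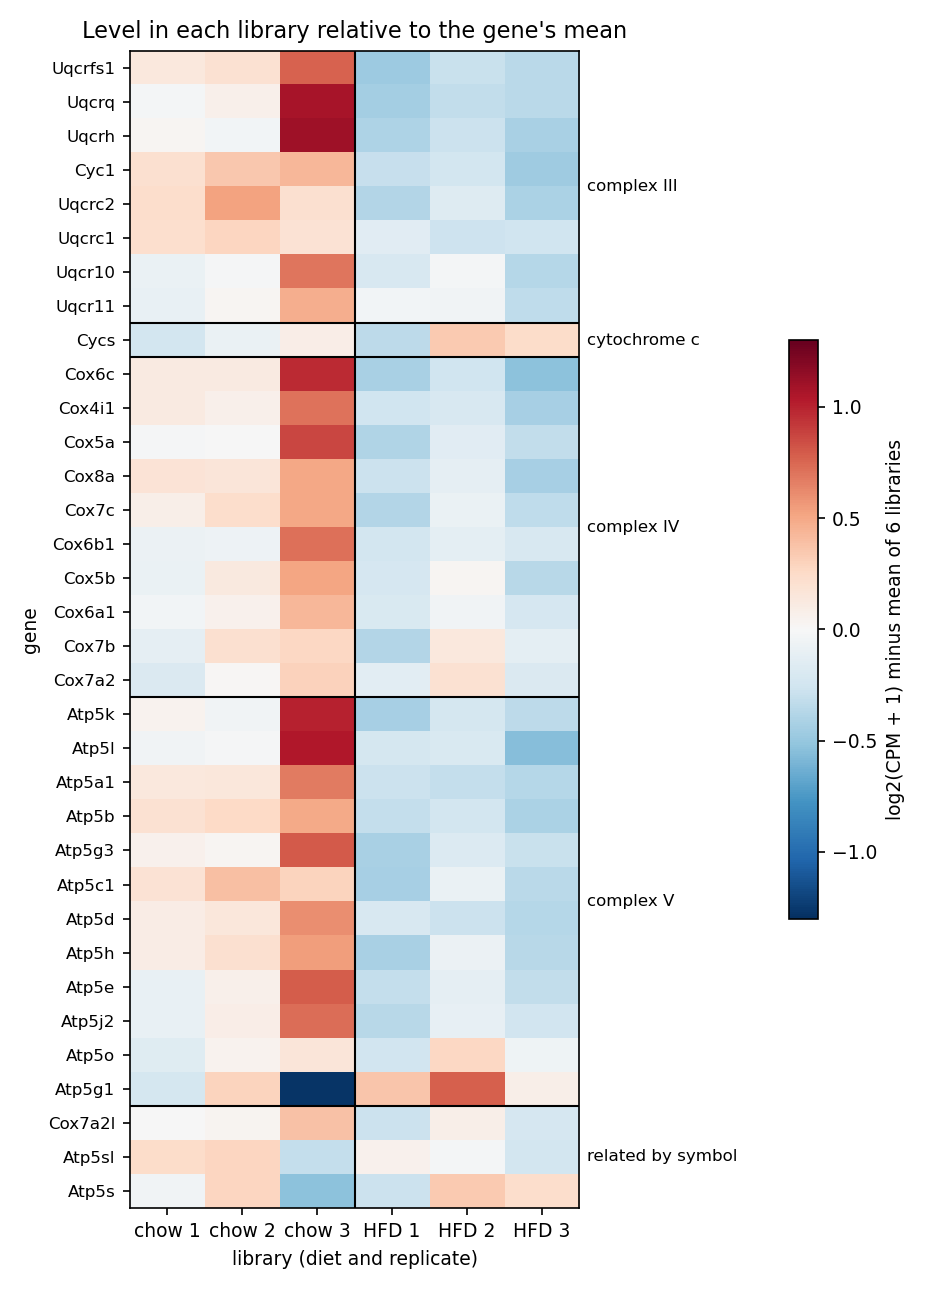
Level of each of the 34 genes in each of the 6 libraries, as log2(CPM + 1) minus the gene's mean over the 6 libraries. Red is above and blue below that mean, rows are grouped by complex and ordered by fold change, and columns are the 3 chow and 3 HFD libraries. Chow replicate 3 is the highest library for 26 genes, whereas Atp5g1, Atp5s and Atp5sl are at their lowest there.

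Many nuclear genes of the respiratory chain are known to carry sites for NRF1 and for ETS factors such as GABPA near their start, and the promoters were read for those letters. RefSeq windows of GRCm38.p6, from 250 bases before to 50 after the start, were found for 28 of the 34 genes (31 windows). The letters GCGCATG, one side of the NRF1 palindrome, were present on either strand in 22.6% of these windows, against 6.93% of windows of tested genes and 3.91% of all 32851 windows. The ETS letters CCGGAAG were in 29.0%, against 17.1% and 8.86%. For AAGATGG, a YY1 core, the shares were 12.9%, 7.07% and 6.34%, and for AAGGTCA, the core of sites for ERR receptors, 12.9%, 3.14% and 4.72%, with all 4 ERR windows in complex V. Of the 9 genes with a window that fell in HFD, 3 held an NRF1 or ETS match, as did 9 of the 19 that were not called. The 4 YY1 windows belong to 3 genes, since overlapping windows of Atp5sl share a match. Only before the start, 5 windows held the NRF1 letters, 7 the ETS, 1 the YY1 and 2 the ERR letters. These were 16.1%, 22.6%, 3.23% and 6.45% of the windows, against 5.67%, 13.2%, 4.18% and 2.8% for tested genes. The YY1 share was thus below that of tested genes there. A match of letters describes the window and is not a measured binding site.

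Windows are shown for 4 genes, so that the letters can be read beside the values: Uqcrc1 and Cox8a, which fell, Cycs, which was not called, and Atp5g1, whose fold change was the highest of the 34 but did not pass. Each is 300 bases, 5′ to 3′ on the gene's strand, with matches in capitals. Uqcrc1 (chr9:108936398-108936697, plus strand) holds GCGCATG on both strands, overlapping as the full palindrome, from position 31, with the start as position 1. Cox8a (chr19:7217567-7217866, minus strand) holds the ETS letters on the other strand, 5 bases before the start and from position 33. Cycs (chr6:50566520-50566819, minus strand) holds the NRF1 letters on the other strand, 59 bases before the start. Atp5g1 (chr11:96075582-96075881, minus strand) holds none of the searched letters in this window.
Uqcrc1: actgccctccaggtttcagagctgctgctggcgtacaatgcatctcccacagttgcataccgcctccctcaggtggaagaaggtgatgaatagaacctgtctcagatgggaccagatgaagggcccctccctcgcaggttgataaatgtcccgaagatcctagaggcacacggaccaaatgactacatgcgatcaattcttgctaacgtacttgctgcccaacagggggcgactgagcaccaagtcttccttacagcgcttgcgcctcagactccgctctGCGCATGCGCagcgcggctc
Cox8a: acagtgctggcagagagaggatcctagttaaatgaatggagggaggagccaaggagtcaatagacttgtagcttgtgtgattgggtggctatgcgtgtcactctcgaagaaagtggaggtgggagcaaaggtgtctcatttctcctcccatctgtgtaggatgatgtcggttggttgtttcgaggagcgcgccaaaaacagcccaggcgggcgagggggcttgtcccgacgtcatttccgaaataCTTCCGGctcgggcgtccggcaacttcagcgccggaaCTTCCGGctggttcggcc
Cycs: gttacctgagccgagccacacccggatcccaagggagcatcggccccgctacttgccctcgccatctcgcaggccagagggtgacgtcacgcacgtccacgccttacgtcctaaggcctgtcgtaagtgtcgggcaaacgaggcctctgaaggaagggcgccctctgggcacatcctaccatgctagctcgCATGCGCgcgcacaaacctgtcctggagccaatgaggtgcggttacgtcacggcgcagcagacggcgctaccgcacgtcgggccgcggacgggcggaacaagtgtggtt
Atp5g1: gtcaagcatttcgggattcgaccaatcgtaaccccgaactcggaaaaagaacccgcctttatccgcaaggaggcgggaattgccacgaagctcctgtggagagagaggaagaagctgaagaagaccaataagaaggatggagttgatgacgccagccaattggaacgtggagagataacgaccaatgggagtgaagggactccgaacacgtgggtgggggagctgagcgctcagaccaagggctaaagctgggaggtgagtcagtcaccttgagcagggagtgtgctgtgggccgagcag

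In complex III 5 of 8 genes fell, the catalytic subunits Uqcrfs1 and Cyc1 among them, and 0 rose (0 fell under adipocyte marker scaling). Without HFD replicate 2, and without HFD replicate 3, 3 of the 8 fell. Gene positions are RefSeq gene spans in GRCm38.p6. Uqcrfs1 (chr13:30540312-30545316) encodes the Rieske iron-sulfur protein, which takes the first electron from ubiquinol. It stood at 206, 215 and 320 CPM in chow replicates 1, 2 and 3, against 134, 153 and 146 CPM in HFD replicates 1, 2 and 3. The chow libraries all lay above the HFD libraries, with chow replicate 3 the highest, and the log2 fold change was -0.74 (adjusted p 0.00941, SE 0.17), or -0.54 (adjusted p 0.00818) without that library. Cyc1 (chr15:76343513-76346260), cytochrome c1, which passes the electron on to cytochrome c, stood at 141, 156 and 165 CPM on chow, against 99, 103 and 88.7 CPM on HFD. Its groups did not overlap and chow replicate 3 was close to the other chow libraries, with a log2 fold change of -0.66 (adjusted p 0.00318, SE 0.12). The call held with each library left out in turn (highest adjusted p 0.0204).

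The core proteins Uqcrc1 (chr9:108936648-108949641) and Uqcrc2 (chr7:120635189-120659523) form the matrix side of complex III. Uqcrc1 levels were 249, 260 and 244 CPM on chow, against 194, 177 and 178 CPM on HFD. Uqcrc2 was at 220, 271 and 217 CPM on chow, against 144, 167 and 141 CPM on HFD. Neither was raised in chow replicate 3, and each group was separate from the other. Their log2 fold changes were -0.45 (adjusted p 0.0126) and -0.64 (adjusted p 0.00614), and -0.47 and -0.70 without chow replicate 3. Uqcrc1 was not called with equal totals (adjusted p 0.0612), without HFD replicate 2 (0.0502) or without HFD replicate 3 (0.0608).

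In small subunits of complex III the value of chow replicate 3 weighed on the result. Uqcrh, the acidic hinge protein that helps cytochrome c1 meet cytochrome c, stood at 205, 195 and 434 CPM on chow, against 152, 165 and 150 CPM on HFD. Its value in chow replicate 3 was far above the other 5 libraries, and the log2 fold change of -0.73 (adjusted p 0.0591, SE 0.27) became -0.36 (adjusted p 0.0321) without it. Uqcrq, a ubiquinone-binding subunit, had 62.7, 66.7 and 135 CPM on chow, against 46.9, 50.9 and 49.9 CPM on HFD. The same library was the high one, the call was just inside the threshold (log2 fold change -0.74, adjusted p 0.0497, SE 0.26), and it was -0.39 (adjusted p 0.0325) without that library. The Uqcrq call was lost without any 1 of the HFD libraries (adjusted p 0.102 to 0.125), with equal totals (0.0539), on the deposited log2 values (0.0522), and with no filter (0.0505) or the filter at 5 CPM (0.0516). Uqcr10 and Uqcr11, small subunits of the membrane part, overlapped between diets and were not called (log2 fold changes -0.40 and -0.27, adjusted p 0.159 and 0.247). For complex III the median was -0.65, and -0.43 without chow replicate 3.

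Cytochrome c itself, the soluble carrier between complexes III and IV that also triggers apoptosis when released, did not pass. Cycs (chr6:50562563-50566569) was at 20.2, 22.6 and 25.6 CPM in chow replicates 1, 2 and 3, against 18.9, 30.9 and 28.6 CPM in HFD replicates 1, 2 and 3. HFD replicate 1 was the lowest and HFD replicates 2 and 3 the highest of the 6, so the groups overlapped, and the log2 fold change was 0.16 (adjusted p 0.554, SE 0.20). Within a library the ratio of Cycs to Cyc1 is unchanged by any scaling that multiplies all genes by the same factor. Quantile normalization is not of that kind. This pair, like the other 2 ratio pairs, was chosen after its values were seen, so no test is given. It was 0.144, 0.145 and 0.155 in chow and 0.191, 0.299 and 0.323 in HFD. Their means were 0.148 ± 0.0063 and 0.271 ± 0.0705 (SD, n = 3).

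**Figure D2:**
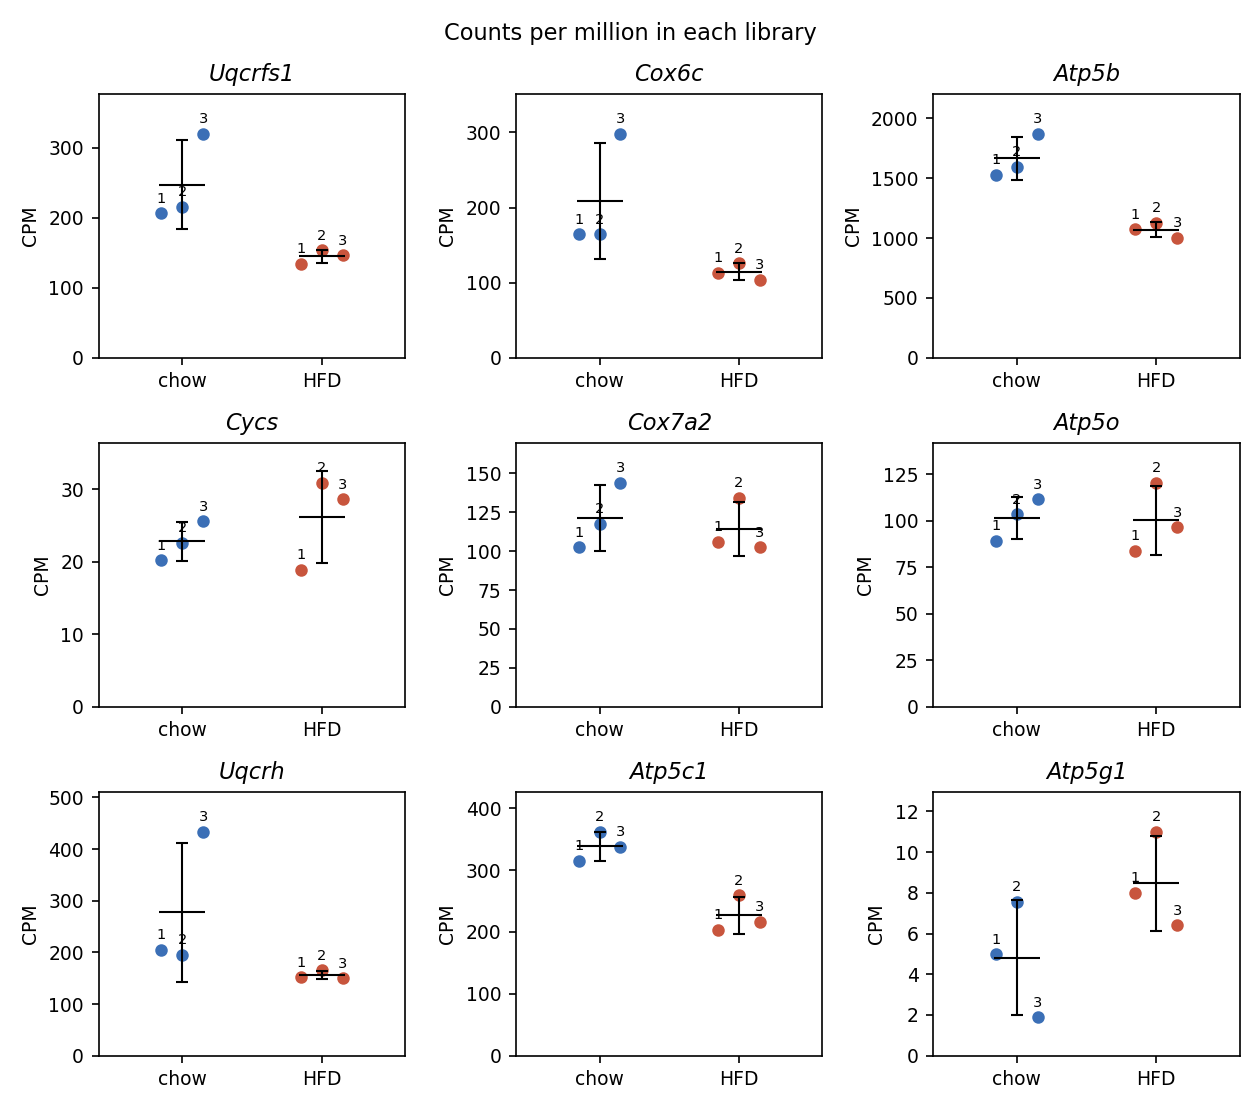
CPM in each library for 9 genes, with chow in blue, HFD in red, replicate numbers beside the points, and a black line and bar for mean and SD (n = 3 per diet). Uqcrfs1, Cox6c, Atp5b, Uqcrh and Atp5c1 separate by diet, although in Uqcrh only chow replicate 3 is far from HFD. Cycs, Cox7a2, Atp5o and Atp5g1 overlap, and each vertical axis starts at 0.

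In complex IV, cytochrome c oxidase, 4 of 10 genes fell and 0 rose (0 fell under adipocyte marker scaling). Without HFD replicate 1 this was 1 of 10, and without HFD replicate 3 it was 0. All 10 are nuclear subunits around a core made in mitochondria. Cox6c (chr15:35931976-35938246), a small membrane subunit, was at 164, 164 and 298 CPM in chow replicates 1, 2 and 3, against 113, 126 and 104 CPM in HFD replicates 1, 2 and 3. Every HFD value was below every chow value, chow replicate 3 was far above the rest, and the log2 fold change was -0.81 (adjusted p 0.0193, SE 0.22), or -0.52 (adjusted p 0.0136) without that library. Cox4i1 (chr8:120668225-120674209), the ubiquitous form of the largest nuclear subunit and a site of regulation by ATP, stood at 410, 393 and 617 CPM on chow, against 315, 326 and 280 CPM on HFD. Its groups did not overlap (log2 fold change -0.59, adjusted p 0.0292, SE 0.18), and without chow replicate 3 the value was -0.39 (adjusted p 0.0318).

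Cox8a, the ubiquitous form of a small membrane subunit whose promoter is printed above, had 320, 315 and 402 CPM on chow, against 234, 261 and 209 CPM on HFD. The groups were separate, with a log2 fold change of -0.55 (adjusted p 0.0159, SE 0.14). Cox7c, a small membrane subunit, had 17.5, 19.6 and 23.9 CPM on chow, against 12.5, 15.6 and 13 CPM on HFD. It too was separate (log2 fold change -0.53, adjusted p 0.0395, SE 0.17), but not called without chow replicate 3 (adjusted p 0.0856) or with equal totals (adjusted p 0.0809).

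The other 6 genes of complex IV were not called. Cox5a, a matrix-side subunit, stood at 95.7, 96.3 and 177 CPM on chow, against 73, 86.8 and 77.2 CPM on HFD. Its groups did not overlap, but chow replicate 3 was far above chow replicates 1 and 2 and the log2 fold change was -0.57 (adjusted p 0.0744, SE 0.23). Cox5b, the zinc-binding subunit, had 61.8, 71.5 and 93.7 CPM on chow, against 56.1, 66.7 and 50.9 CPM on HFD. Cox6a1, the liver-type form of a subunit that holds the dimer, had 144, 153 and 200 CPM on chow, against 129, 143 and 127 CPM on HFD. Cox5b overlapped between diets and Cox6a1 did not, and neither was called (-0.37, adjusted p 0.132, and -0.30, adjusted p 0.138). Cox6b1, on the cytochrome c side, and Cox7b, a membrane subunit, had log2 fold changes of -0.38 and -0.25 (adjusted p 0.175 and 0.279).

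Cox7a2, the liver-type form of subunit VIIa, had the smallest difference in complex IV. It stood at 102, 118 and 144 CPM on chow, against 106, 134 and 102 CPM on HFD. The groups overlapped throughout and the log2 fold change was -0.08 (adjusted p 0.724, SE 0.16). The ratio of Cox7a2 to Cox6c within a library was 0.624, 0.717 and 0.483 in chow and 0.940, 1.06 and 0.986 in HFD, again a pair chosen after its values were seen. Cox7a2 overlaps the listed gene Tmem30a in the annotation, so reads of the 2 genes may not be told apart in a library that does not mark strand. The Cox4i1 call was lost without any 1 of the HFD libraries (adjusted p 0.0602 to 0.104), that of Cox6c without HFD replicate 1 or 3 (0.0569 and 0.0663) and that of Cox8a without HFD replicate 3 (0.0758). Cox7c was also not called without chow replicate 2, HFD replicate 1 or HFD replicate 3 (adjusted p 0.0767, 0.111 and 0.13). Complex IV had a median of -0.46, or -0.24 without chow replicate 3.

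In complex V, 6 of 12 genes fell and 0 rose (0 fell under adipocyte marker scaling). Without HFD replicate 2 or 3 this was 3 and 2 of 12, and without chow replicate 1 it was 9. In the fit without chow replicate 1, 1647 of all 11643 genes were called lower and 2101 higher. The catalytic head, F1, turns ADP into ATP, and 4 of its 5 subunits here fell. Atp5b (chr10:128083307-128090388), the beta subunit that carries the catalytic sites, stood at 1531, 1596 and 1872 CPM in chow replicates 1, 2 and 3, against 1075, 1128 and 1003 CPM in HFD replicates 1, 2 and 3. The groups were separate, chow replicate 3 was the highest, and the log2 fold change was -0.64 (adjusted p 0.00858, SE 0.14), with a highest adjusted p of 0.0459 over the libraries left out in turn. Atp5a1, the alpha subunit, which overlaps the listed gene Haus1, had 1252, 1261 and 1820 CPM on chow, against 942, 923 and 879 CPM on HFD. All HFD libraries were below all chow libraries (log2 fold change -0.64, adjusted p 0.0186, SE 0.17).

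Atp5c1 (chr2:10056030-10080510), the gamma subunit that forms the rotating shaft, was at 315, 362 and 338 CPM on chow, against 204, 260 and 217 CPM on HFD. Chow replicate 3 lay between the other chow libraries, so the log2 fold change of -0.58 (adjusted p 0.0089, SE 0.13) was also -0.58 without it. Atp5d, the delta subunit of the shaft's foot, had 125, 130 and 178 CPM on chow, against 101, 96.3 and 90.5 CPM on HFD. It fell with separate groups (log2 fold change -0.57, adjusted p 0.0182, SE 0.15). Atp5e, the small epsilon subunit beside it, stood at 145 ± 50.3 CPM on chow, against 98.6 ± 7.86 CPM on HFD (SD, n = 3) and was not called (adjusted p 0.0951).

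The peripheral stalk keeps the head from turning with the shaft. Atp5h (chr11:115415691-115419919), its d subunit, had 56.9, 61.8 and 78.2 CPM on chow, against 39.7, 50.6 and 41.4 CPM on HFD. It fell (log2 fold change -0.57, adjusted p 0.0223, SE 0.16), with separate groups, and missed the threshold without chow replicate 3 (adjusted p 0.0502). Atp5o (chr16:91925223-91931630), the OSCP subunit that joins the stalk to the head, stood at 89.3, 103 and 111 CPM on chow, against 83.9, 120 and 96.3 CPM on HFD. HFD replicate 2 was the highest and HFD replicate 1 the lowest of all 6, and the log2 fold change was -0.03 (adjusted p 0.912, SE 0.16). The ratio of Atp5o to Atp5h was 1.57, 1.67 and 1.42 in chow and 2.11, 2.38 and 2.33 in HFD, a pair chosen after its values were seen.

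**Figure D3:**
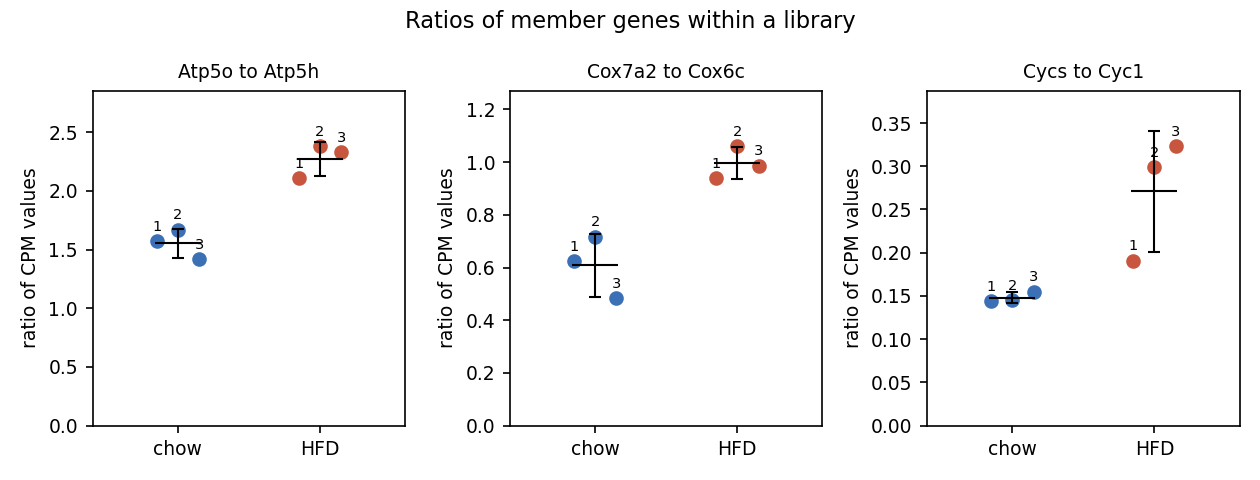
Ratio of CPM values of 2 genes within each library, for Atp5o to Atp5h, Cox7a2 to Cox6c and Cycs to Cyc1, with replicate numbers beside the points and a black line and bar for mean and SD (n = 3 per diet). In each panel the 3 HFD ratios lie above the 3 chow ratios. The pairs were chosen after their values were seen, so this separation is a description only.

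The c subunits form the membrane ring that protons turn. They are encoded by several genes whose mature proteins are alike and whose mRNAs differ, of which Atp5g1 and Atp5g3 were analysed here and Atp5g2 was not. Atp5g3 (chr2:73908447-73912464) had 247, 242 and 413 CPM on chow, against 177, 209 and 194 CPM on HFD. It fell with separate groups (log2 fold change -0.59, adjusted p 0.0462, SE 0.20), close to the threshold. Atp5g1 (chr11:96072793-96075694) was at 4.99, 7.57 and 1.89 CPM on chow, against 8, 11 and 6.41 CPM on HFD. Chow replicate 3 was the lowest, at only 14 reads against 116 to 352 in the others, the groups overlapped, and the log2 fold change was 0.81 (adjusted p 0.123, SE 0.38). It passed without chow replicate 2 (adjusted p 0.0377) and not without chow replicate 3, where it was 0.37 (adjusted p 0.316). As a share of the summed CPM of both genes, Atp5g1 made up 1.98%, 3.03% and 0.456% in chow and 4.32%, 4.99% and 3.2% in HFD. The HFD shares all lay above the chow shares, 4.17% ± 0.907 against 1.82% ± 1.29 (SD, n = 3). An exact two-sided permutation test gave p = 0.1, the smallest value that 3 libraries against 3 allow.

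The membrane subunits around the ring had fold changes below 0 and were not called. Atp5k, the e subunit, had 91.1, 85.6 and 177 CPM on chow, against 65.3, 75.1 and 69.5 CPM on HFD. Atp5l, the g subunit, had 16.8, 17.1 and 36.8 CPM on chow, against 14.7, 15 and 11.6 CPM on HFD. Both help the synthase form dimers in the cristae, and in both the diets were separate and chow replicate 3 was by far the highest library. Their log2 fold changes were -0.67 and -0.65 (adjusted p 0.0619 and 0.102), or -0.33 and -0.29 without that library. Atp5j2, the f subunit, was at -0.48 (adjusted p 0.0963). The calls of Atp5a1 and Atp5d were lost without HFD replicate 2 (adjusted p 0.0583 and 0.0533) or HFD replicate 3 (0.0694 and 0.0717). That of Atp5h was lost without HFD replicate 1 or 3 (0.076 and 0.0832). That of Atp5g3 was lost without any 1 of the HFD libraries (0.0785 to 0.134) and with equal totals (0.0503). The complex V median was -0.58, and -0.34 without chow replicate 3.

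Genes that share the stem of a name were not called. Cox7a2l stood at 79.6 ± 12.3 CPM on chow, against 65.3 ± 9 CPM on HFD (SD, n = 3), with a log2 fold change of -0.28 (adjusted p 0.188). Atp5s, a coupling factor, and Atp5sl, an assembly factor of complex I, are low genes, with 47 to 49 reads in chow replicate 3. Their log2 fold changes were 0.20 and -0.14 (adjusted p 0.583 and 0.659), and their diets overlapped.

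**Figure D4:**
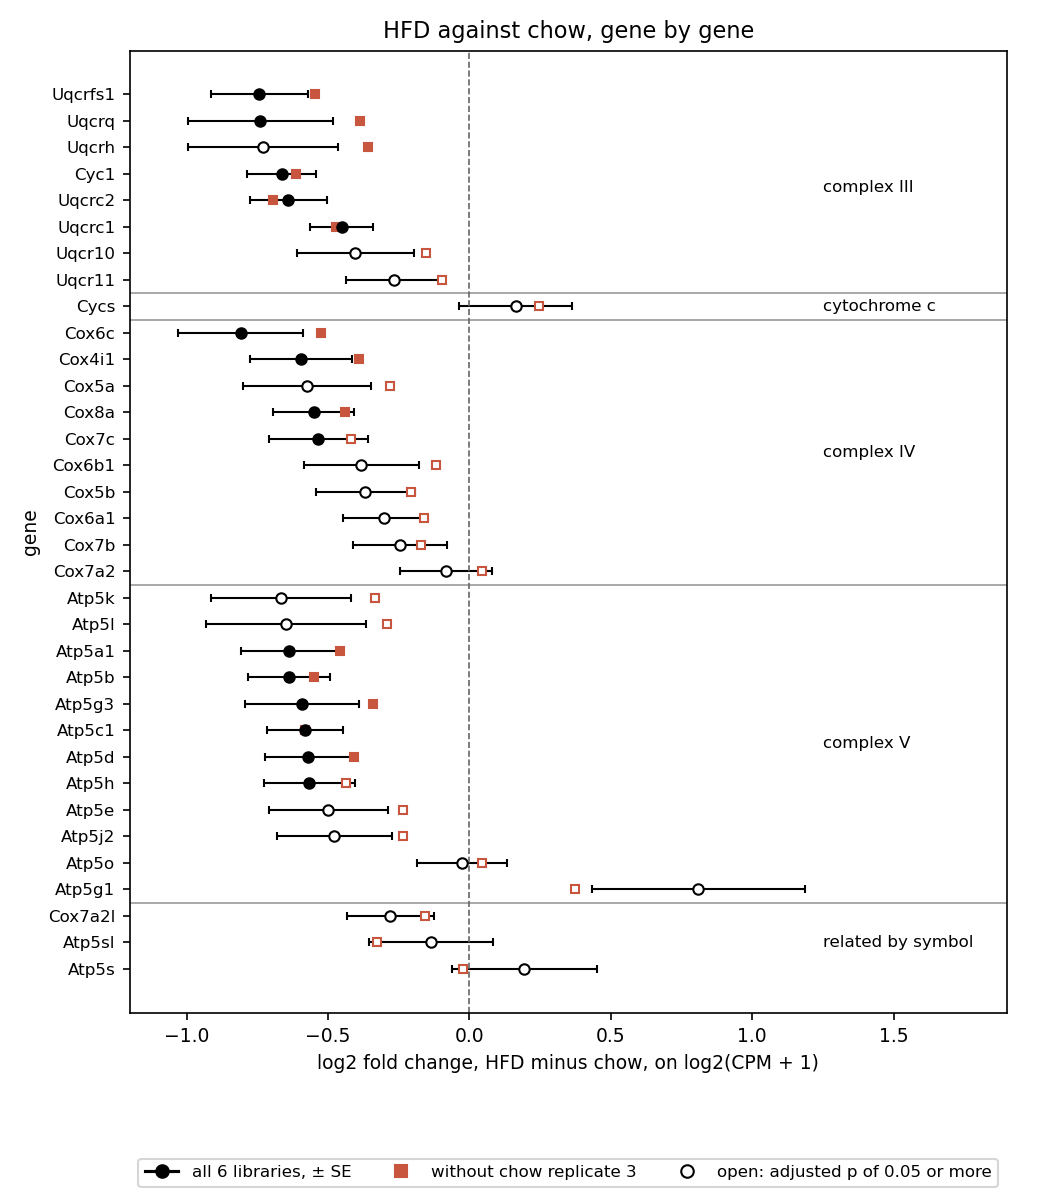
Log2 fold change of each gene, HFD minus chow on the log2(CPM + 1) scale, with black circles and SE bars for all 6 libraries and red squares for the fit without chow replicate 3. Filled symbols passed an adjusted p under 0.05 (limma), 15 of 34 in black and 14 of 34 in red, all below 0. Under scaling on adipocyte markers, not drawn here, 0 of the 34 fell.

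These directions are relative to the bulk of genes. Setting library totals equal moved the median of all genes by 0.10, and 11 of the 34 still fell. Of all 11642 genes tested there, 1334 were called lower and 2515 higher. Setting the median of 16 adipocyte markers equal between libraries moved the median of all genes to 0.55. Then 0 of the 34 fell and 5 rose (Atp5g1, Atp5o, Atp5s, Cox7a2 and Cycs), where 3.01% of all genes were called lower and 52.8% higher. Uqcrc1, Cox7c, Cox8a, Atp5c1, Atp5d and Atp5h, which fell with the deposited scaling, had log2 fold changes slightly above 0 and were not called. Under that scaling the medians were -0.07 for complex III, 0.12 for complex IV and 0.01 for complex V. All of these lay below the median of all genes, as they did under every scaling run. The markers used for it were themselves lower on balance in HFD, with 7 of 16 called lower, 1 higher and a median of -0.42. Under that scaling 5 of the 16 were called higher and 2 lower, with a median of 0.17. Their fold changes were thus above 0 on balance rather than level.

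**Figure D5:**
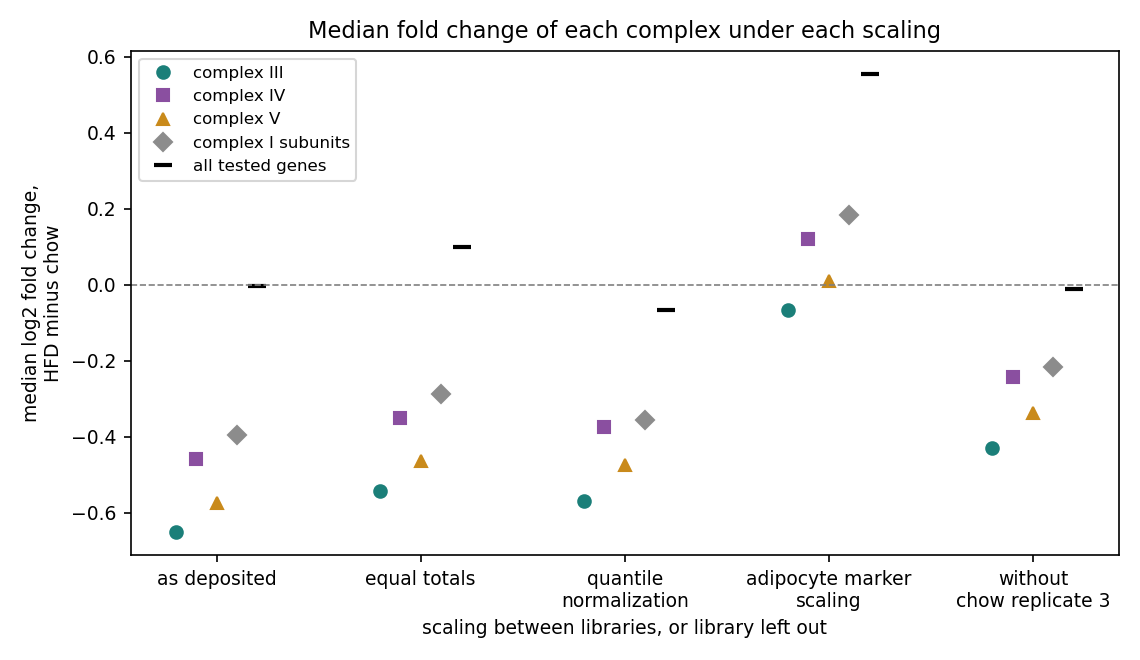
Median log2 fold change (vertical axis, HFD minus chow) of complexes III, IV and V, of 36 complex I genes and of all genes tested, for the deposited scaling, 3 other scalings and the fit without chow replicate 3. The medians of complexes III, IV and V are below 0 except complexes IV (0.12) and V (0.01) under adipocyte marker scaling, and lie below that of all genes in each case.

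Neighbouring complexes give the context. Of 36 complex I genes 14 fell and 0 rose (background 16.0% and 19.1%), with a median of -0.40. Under adipocyte marker scaling 0 fell and 6 rose, with a median of 0.18. Without HFD replicate 1 or 3, 7 and 8 of the 36 fell. Ndufa5, a subunit of the matrix arm, stood at 71.7 ± 33.1 CPM on chow, against 31.4 ± 2.06 CPM on HFD (SD, n = 3) and had the lowest log2 fold change of the list (-1.08, adjusted p 0.0111). Of 4 complex II genes 3 fell, with a median of -0.58 (1 lower and 0.01 under that scaling), and 2 fell without HFD replicate 1 or 3. Sdha, the flavoprotein that oxidises succinate, stood at 1021 ± 208 CPM on chow, against 504 ± 12.2 CPM on HFD (-0.999, adjusted p 0.00138). Of 6 subunits and associated factors of complexes III to V under other symbols 1 fell and 2 rose, with a median of 0.08. Ndufa4, now counted as a subunit of complex IV, fell by 0.61 on the log2 scale, from 233 ± 54.6 to 150 ± 12.3 CPM. It was not called without HFD replicate 1 or without HFD replicate 3, nor under adipocyte marker scaling (adjusted p 0.914). Usmg5 (-0.31, adjusted p 0.248) and 2010107E04Rik (-0.17, adjusted p 0.527), small subunits of complex V, overlapped between diets.

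The hypoxia-inducible-domain proteins Higd1a and Higd2a, which bind complex IV and aid its assembly into supercomplexes, rose. Higd2a stood at 36.7 ± 6.21 CPM on chow, against 60.9 ± 3.93 CPM on HFD (0.73, adjusted p 0.00612), and Higd1a at 53.3 ± 13.3 CPM on chow, against 80.7 ± 11.8 CPM on HFD (0.61, adjusted p 0.0333). Higd1a overlapped between diets, at 68.1 CPM in chow replicate 3 and 67.2 CPM in HFD replicate 1. Without chow replicate 1, chow replicate 2, HFD replicate 2 or HFD replicate 3, 1 gene of the list rose rather than 2. Of 16 complex IV assembly genes 3 fell and 1 rose, a lower share near the background of 16.0%, with a median of -0.09. Under adipocyte marker scaling 0 fell and 7 rose (median 0.47). Without HFD replicate 1 or 3, 1 and 0 of the 16 fell. The riser was Cox19, a copper-handling factor of the intermembrane space, at 36.9 ± 3.2 CPM on chow, against 73.4 ± 7.08 CPM on HFD (0.97, adjusted p 0.000612). Cox14 and Cox18, which stabilise and insert mitochondrially made subunits, fell (-0.73 and -0.66), as did Coa5 (-0.44, adjusted p 0.0499), which was not called without chow replicate 3 (adjusted p 0.0926).

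Of 7 complex III assembly genes 1 fell, a share below the background, with a median of 0.01 (0 lower, 4 higher and 0.58 under adipocyte marker scaling). It was Uqcc3, which stabilises cytochrome b (-0.82, adjusted p 0.00549). Of 4 complex V assembly genes 2 fell, with a median of -0.53 (0 lower, 1 higher and 0.03 under that scaling), and 1 fell without HFD replicate 3. The 2 were Atpaf1, the chaperone of the beta subunit (-0.68, adjusted p 0.0143), and 1110001J03Rik (-0.83, adjusted p 0.0114). Atpif1, the inhibitor that stops the synthase running backwards, stood at 17.7 ± 2.02 CPM on chow, against 22.8 ± 4.26 CPM on HFD and did not pass (adjusted p 0.174). Among 16 rows for regulators of mitochondrial genes (Gabpa and Peo1 have 2 rows each) 4 fell and 0 rose (background 16.0% and 19.1%). Their median was -0.28 (0 lower, 2 higher and 0.29 under adipocyte marker scaling). The coactivators Ppargc1a (-0.996) and Ppargc1b (-0.88) fell, as did Tfam (-0.78), which packs and transcribes mitochondrial DNA. Peo1 fell in 1 row (-0.68, adjusted p 0.0142) and was not called in the other (-0.21, adjusted p 0.43). Nrf1, Gabpa, Esrra and Yy1 were not called. Tfam went from 56.9 ± 11.1 to 32.3 ± 1.82 CPM (SD, n = 3).

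Markers of several other cell types also differed between diets, to a degree that varied by list (background 16.0% lower and 19.1% higher). All 16 adipocyte markers were listed in the table, and their summed level was 32710 to 49275 CPM on chow, against 26371 to 29272 CPM on HFD. Of 12 macrophage markers 11 rose and 1 fell, with summed levels of 79.9 to 103 CPM on chow, against 320 to 505 CPM on HFD. These sums did not overlap between diets. Of 10 endothelial markers 9 rose, with sums of 32.7 to 82.2 and 136 to 297 CPM. Smooth muscle and pericyte markers rose in 6 of 7 tested, with sums of 1048 to 1174 and 1461 to 1860 CPM. In both of these lists, too, every HFD sum was above every chow sum. The largest part of the smooth muscle and pericyte sums was Mcam, which was not called (1025 CPM on chow, 901 CPM on HFD). Fibroblast and progenitor markers rose in 4 and fell in 1 of 12, with sums of 2646 to 3857 and 2276 to 4561 CPM. Of 6 tested mesothelial markers 2 rose, and 0 rose without chow replicate 3 or with quantile normalization. Sums over all 7 listed mesothelial markers were 18.9 to 31.3 and 41.4 to 134 CPM. HFD replicate 3 held the 134, against 43.8 and 41.4 CPM in HFD replicates 1 and 2. The fibroblast sums overlapped and the mesothelial sums did not. Of 12 skeletal muscle markers 3 were listed and 1 rose, with sums of 46.5 to 66.9 and 75.8 to 110 CPM, and Ckm and the myosin heavy chain genes of the list were not among them. Of 12 brown and beige fat markers 6 were listed, Ucp1 and Cidea not among them, and 2 rose and 1 fell, with sums of 34.7 to 49.3 and 40.5 to 57.8 CPM. For T and B cells 1 marker of 8 was listed. The part of these cells in the lower levels of respiratory genes was not tested.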

How the data were processed

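The 6 RNA libraries (3 chow, 3 HFD) of the 13 samples were used. The 5 H3K27ac and 2 PPARG samples were not analysed here. Per the submitters' processing notes, HISAT2, Picard, featureCounts, edgeR and build mm10 were used, with roles and versions not given in the sources used here. Per the labels' protocols, ribosomal RNA was depleted and libraries were tagmented, a preparation that does not mark strand. The authors deposited log2 CPM values, rounded, 1 column per library. Columns were matched to samples by diet and replicate number, and 0 columns had no sample.

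Each value was turned back into CPM, and log2(CPM + 1) was used for the 11643 of 11761 genes averaging 1 CPM or more. The test was limma (version 3.58.1, R 4.3.3; moderated with a trend, two-sided, Benjamini-Hochberg over all genes, threshold 0.05). Fold changes on this scale understate changes of low genes. Steps between low values (under 20 reads) were whole within 0.1 of a read in all libraries and gave effective sizes of 23200000, 32470000 and 7430000 reads for chow replicates 1 to 3 and 33700000, 31970000 and 39400000 for HFD replicates 1 to 3. A level of 3 reads is 0.404 CPM in chow replicate 3 and at most 0.129 CPM elsewhere, counting error only.

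Alternatives were other pseudocounts, filters and scalings, sample quality weights, the replicate number as a block, and each library left out. The members, lists and tests were chosen with earlier results of these data known. Genes were named where they were called, where an uncalled fold change exceeded 0.5, or from a fixed set of main subunits, with the 2 called genes of largest change in each direction from each of the other lists and a few chosen after their values were seen. A gene that the rule names is not reported here. Positions and promoters are from RefSeq GRCm38.p6, the assembly that mm10 denotes. There 12 of the 34 genes overlap another gene, 2 of them a listed one, and 7 have a named pseudogene (Uqcrh, Cycs, Cox5b, Cox7c, Atp5c1, Atp5k and Atp5l), so their values are less certain. Shares, ratios and sums of CPM over genes were not corrected for transcript length, which was not used here. They compare libraries, and do not measure the relative abundance of the genes.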

Additional observations from a re-analysis of the deposited data

How the results depend on the processing

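The count of the 34 genes called lower (15) was 11 to 16 under the other pseudocount, the deposited log2 values, the filters, equal totals, quantile normalization and sample quality weights. Over all genes tested, the lower count under these ran from 1334 (equal totals) to 2498 (sample quality weights, with 16 of the 34). The count of the 34 was 0, with 5 higher, under adipocyte marker scaling. Under that scaling 0 genes of each complex were called lower, the median of all 34 was 0.029, and those of complexes III, IV and V were -0.067, 0.121 and 0.010. Over all genes, 351 were called lower and 6152 higher there, against 1863 and 2221. Log2 fold changes below 0 went from 31 of the 34 genes to 12 there. Among the genes that turned positive were Uqcrc1 (0.136), Cox7c (0.022), Cox8a (0.036), Atp5c1 (0.006), Atp5d (0.016) and Atp5h (0.013), which no longer passed, and Cox7a2 (0.502) and Atp5o (0.558), which passed. The cause was not tested.

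Equal totals left 3 of 8 complex III genes lower, with a median of -0.542, and sample quality weights gave that complex -0.492. With 1 library left out, the lower count ran from 5 to 20 (9 without HFD replicate 1, 9 without HFD replicate 2 and 5 without HFD replicate 3), and the higher count from 0 to 1. By complex it ran from 3 to 6 in complex III, 0 to 5 in complex IV and 2 to 9 in complex V. Medians ran from -0.713 to -0.430 in complex III, and the count over all genes from 1162 to 1740 lower. The Atp5g1 share difference of 2.35 percentage points ran from 1.66 to 2.95. The cause of these shifts was not tested.

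Replicate numbers are shared between diets, but the labels state no pairing, so the main fit used no block. Same-numbered libraries deviated together with correlations of 0.43, 0.23 and 0.09 across genes. Chow replicates 1 and 2 each correlated best with the HFD library of the same number (other pairs -0.39 to -0.04). Chow replicate 3 correlated best with HFD replicate 2 (0.15). Whether the libraries were paired was not tested. With a replicate block 19 of the 34 fell and 1 (Atp5g1) rose. Over all 11643 genes tested, 2245 were then called lower and 2594 higher. The planned division of isoform levels by transcript length was not run, since no transcript lengths were used here. Depth limits Atp5g1 most, with 14 reads in chow replicate 3.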

Other observations

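Of 7 tested genes that exchange adenine nucleotides and phosphate across mitochondrial membranes 2 fell and 0 rose (background 16.0% lower over all genes tested), with a median log2 fold change of -0.13. Under adipocyte marker scaling 0 fell and 3 rose, with a median of 0.46, and 0 fell with equal totals, with quantile normalization, and without HFD replicate 1, HFD replicate 3 or chow replicate 3. Slc25a4, the ADP and ATP carrier, stood at 349 ± 37.4 CPM on chow, against 262 ± 27.9 CPM on HFD, and Slc25a3, the phosphate carrier, at 366 ± 71.4 CPM on chow, against 268 ± 2.83 CPM on HFD (SD, n = 3). Their limma adjusted p-values were 0.0404 and 0.0481, and without chow replicate 3 they were 0.0729 and 0.0572. Of 11 genes that shape cristae and the inner membrane 2 fell and 0 rose, a share near the background, with a median of -0.27. Under adipocyte marker scaling 0 fell and 3 rose, with a median of 0.32, and 1 fell without HFD replicate 1, without HFD replicate 3 or with equal totals. Samm50, of the outer membrane's beta-barrel assembly machinery, stood at 155 ± 18.7 CPM on chow, against 99.5 ± 14.5 CPM on HFD (-0.64, adjusted p 0.00918), and Stoml2, a cardiolipin-binding protein, at 60.9 ± 2.55 CPM on chow, against 44.8 ± 4.11 CPM on HFD (-0.44, adjusted p 0.0242).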
